A study of Mus musculus with 4 samples.

Results

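The miR-15/16 family was examined in Sertoli cell RNA on 4 miRNA arrays. The members were taken by name as mmu-miR-15a, mmu-miR-15b, mmu-miR-16, mmu-miR-195 and mmu-miR-497 (without the mouse prefix mmu in what follows), and they are 5 of the 567 mouse miRNAs on the array. A miRNA is a short RNA that pairs with messenger RNAs through its seed (its bases 2 to 8) and lowers their translation or stability. These miRNAs share a seed, so they are predicted to bind the same target sites, and they are best known for restraining the cell cycle by targeting cyclins, cyclin-dependent kinases and the survival factor Bcl2. They are made from separate gene clusters, in each of which a pair of members is processed from the same primary transcript.

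Sertoli cells, the somatic cells that nurse germ cells in the seminiferous tubule, were purified from the testes of adult B6129 male mice, and RNA was pooled from 5 to 7 mice. Sham mice received an implanted Silastic tube and saline injections. Flut+Acy mice received the androgen receptor blocker flutamide from the implant and injections of acyline, which blocks gonadotropin-releasing hormone and so lowers testosterone. Flut+Acy+T mice received flutamide, acyline and testosterone. The labels call these groups control, flutamide and Testosterone, and acyline is named in the methods of the study. One array each was run for Sham and Flut+Acy+T and 2 for Flut+Acy. Whether the Flut+Acy pair held separate pools or the same RNA is not given in the sources used here, so the spread between them may be technical, and p-values describe these arrays and not mice.

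The sequences are shown to make the shared seed and the differences outside it visible, with the seed in capitals, as RefSeq gives them (GRCm38.p6, all 5 members matched by name):
miR-15a: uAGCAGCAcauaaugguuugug
miR-15b: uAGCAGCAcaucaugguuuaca
miR-16: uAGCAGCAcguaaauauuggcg
miR-195: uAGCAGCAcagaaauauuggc
miR-497: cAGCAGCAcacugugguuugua

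All 5 members had the same seed, and 1 other of the 368 array miRNAs that matched a RefSeq name, miR-322, had it too. Outside the seed the members fell into different kinships than by gene cluster. miR-16 and miR-195 had 19 identical bases of 21 compared and differed by G10A and U11G (the base of miR-16, the position from the 5′ end, the base of miR-195). miR-15a and miR-15b had 18 identical bases of 22, whereas miR-16 and miR-497 had 11 of 22. miR-15b (chr3:69009775-69009796, plus strand) and a copy of miR-16 (chr3:69009918-69009939, plus strand) lie within the bounds of Smc4, a condensin subunit gene. miR-15a (chr14:61632075-61632096, minus strand) and the other copy of miR-16 (chr14:61631936-61631957, minus strand) lie within those of Dleu2, a long non-coding RNA gene. Both copies give the same mature miR-16, so the arrays cannot tell them apart. miR-497 (chr11:70234730-70234751, plus strand) and miR-195 (chr11:70235062-70235082, plus strand) form the cluster on chromosome 11, with 331 bases between their 3′ ends. Each member was read by a pair of probes with 20 spots in all. The probes of miR-16 covered its bases from 5 or 6 to the 3′ end and those of miR-195 its bases from 3 or 4, so both sets spanned the 2 differing positions. How much of one miRNA's signal came from its near relative was not tested.

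The arrays differed in ways that touch every result. The summed total signal (background-subtracted intensity of a miRNA's probes, before normalization) was 57940 units on Sham, 139602 and 161460 for the Flut+Acy pair, and 201919 with Flut+Acy+T. The Flut+Acy+T array stood apart, with a negative-control SD of 1326 units against 2.72 to 7.45 on the others, and it detected 102 miRNAs against 193 to 275. The family made up 5.17% of the summed signal on Sham, 5.69% and 5.27% for the Flut+Acy pair and 4.29% with Flut+Acy+T. All 5 members were detected on all 4 arrays, none with a saturated or nonuniform spot. On Sham and Flut+Acy every one of their spots was well above background, but on Flut+Acy+T this held for 15 of 20 spots of miR-15a, 10 of miR-15b, 10 of miR-16, 19 of miR-195 and 17 of miR-497.

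In the total signals, the family split by cluster between Sham and Flut+Acy. The members on chromosomes 3 and 14 were 4.37 to 10.7 times brighter in Flut+Acy, and those on chromosome 11 were 1.56 to 1.91 times brighter. The median over the 76 miRNAs detected on all 4 arrays was 2.35 times brighter, so miR-15a, miR-15b and miR-16 lay above it and miR-195 and miR-497 below. Relatives made from other loci also lay above the median, with miR-322 at 4.81, miR-107 at 3.91 and miR-103 at 3.71 times brighter. A rise past the median was thus not particular to the clusters on chromosomes 3 and 14. In these bulk samples, fewer cells of a type and less RNA per cell cannot be told apart.

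miR-15b, from the chromosome 3 cluster, gave a total signal of 179 ± 14.2 units on Sham (± is the scanner software's error, which covers the spots of 1 array and not mice). The Flut+Acy pair read 1847 ± 141 and 1975 ± 150, and with Flut+Acy+T the value was 894 ± 142. Both Flut+Acy values were more than 10 times the Sham value, and Flut+Acy+T lay between. miR-16, made from both chromosome 3 and chromosome 14, gave 192 ± 16.7 on Sham, 1021 ± 86.6 and 1088 ± 89.3 on the Flut+Acy pair, and 716 ± 139 with Flut+Acy+T. miR-15a, the partner of miR-16 on chromosome 14, gave 271 ± 20.2 on Sham, 1206 ± 86.9 and 1168 ± 83.1 on the Flut+Acy pair, and 993 ± 142 with Flut+Acy+T. All 3 were lowest on Sham and highest on Flut+Acy, although for miR-15a the Flut+Acy+T error reached within that of the Flut+Acy arrays.

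miR-195 gave 1151 ± 89.6 units on Sham, 2032 ± 163 and 2372 ± 188 for the Flut+Acy pair, and 3268 ± 287 with Flut+Acy+T. Its cluster partner miR-497 gave 1200 ± 99.6 on Sham, 1836 ± 154 and 1907 ± 160 on the Flut+Acy pair, and 2800 ± 269 with Flut+Acy+T. For both the highest unnormalized value was on Flut+Acy+T, the array with the highest summed signal, and not on Flut+Acy. The Flut+Acy pair differed by 3.09% to 16.7% of the first array's signal for the 5 members, most for miR-195 and least for miR-15a.

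**Figure D1:**
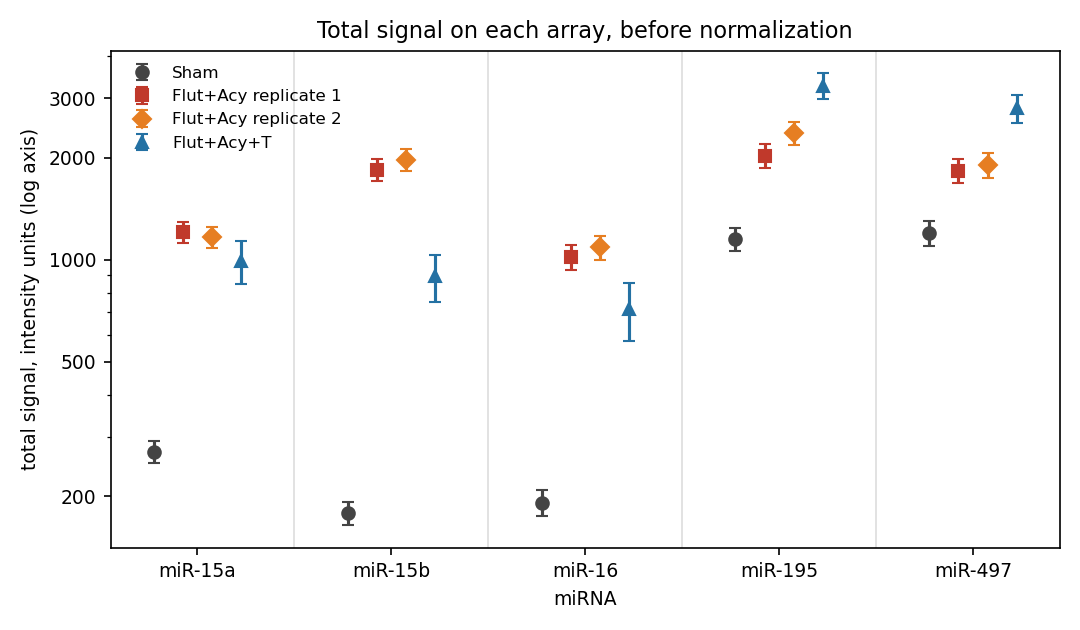
Total signal of each family member on each array, in intensity units on a log axis and before normalization; points are single arrays and bars the scanner software's error. miR-15a, miR-15b and miR-16 sit lowest on Sham and highest on Flut+Acy, whereas miR-195 and miR-497 are highest on Flut+Acy+T.

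To set arrays against each other, total signals were quantile-normalized and put on a log2 scale, where a value of 1 is a doubling. The normalized log2 signal of miR-15b was 9.23 on Sham, 10.84 on both Flut+Acy arrays and 9.25 with Flut+Acy+T. The Flut+Acy arrays were level with each other and stood above the other 2, which lay 0.02 apart. For miR-16 it was 9.40 on Sham, 9.86 and 9.81 on the Flut+Acy pair, and 8.93 with Flut+Acy+T. For miR-15a it was 9.76 on Sham, 10.14 and 9.93 on the Flut+Acy pair, and 9.59 with Flut+Acy+T. Flut+Acy was again the highest group for both, and Flut+Acy+T the lowest.

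The normalized log2 signal of miR-195 was 11.24 on Sham, 11.03 on both Flut+Acy arrays and 11.31 with Flut+Acy+T. That of miR-497 was 11.48 on Sham, 10.82 and 10.74 on the Flut+Acy pair, and 10.88 with Flut+Acy+T. For this cluster Flut+Acy was the lowest group, where it was the highest for the other members. For miR-497, however, Flut+Acy+T lay only 0.09 above Flut+Acy. Quantile normalization gives miRNAs of equal rank the same value, and miR-15b (rank 20) and miR-195 (rank 17) had the same rank on both Flut+Acy arrays. Their spread there was therefore 0, which is smaller than the scanner error of either miRNA. Their limma standard errors pool that 0 with the prior, so the tie made them smaller than the prior alone would.

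**Figure D2:**
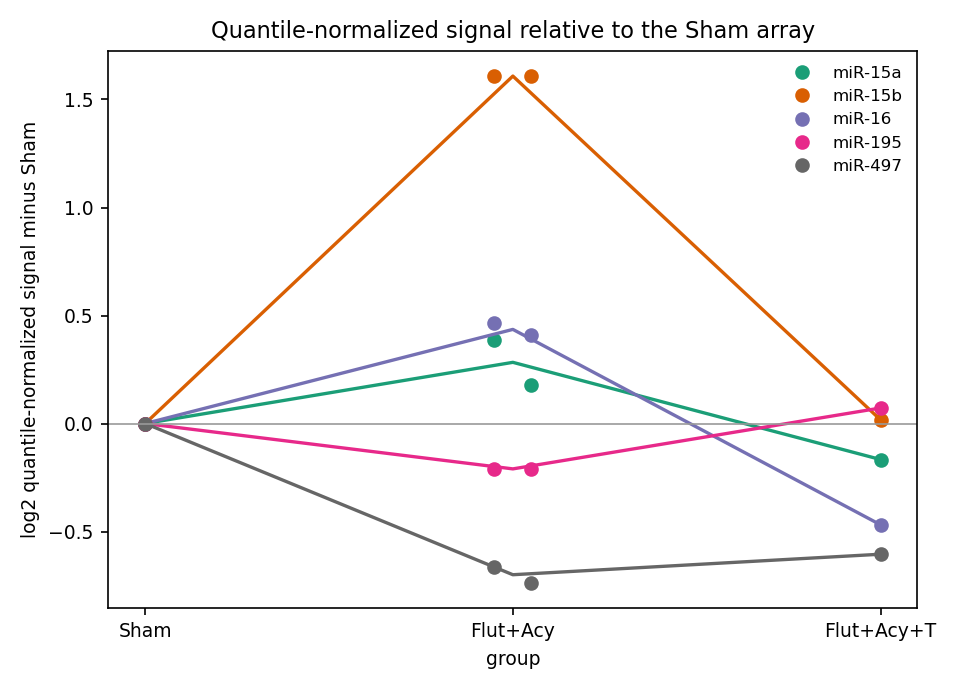
Quantile-normalized log2 signal minus the value of the Sham array, by group; points are single arrays and lines join group means. miR-15b is 1.61 above Sham on both Flut+Acy arrays and 0.02 above it on Flut+Acy+T, while miR-195 and miR-497 lie below Sham in Flut+Acy, which holds only with scaling between arrays.

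The comparison of Flut+Acy with Sham asks which miRNAs respond to androgen suppression. limma called 4 of the 5 members at an adjusted p under 0.05, against 54% of the 298 miRNAs tested, so a call as such does not mark the family. miR-15b and miR-16 rose, against 25.5% of all tested, and miR-195 and miR-497 fell, against 28.5%. miR-15b was higher in Flut+Acy by 1.61 (standard error 0.0069, limma adjusted p = 0.0044), a 3.05-fold difference. The difference was positive in every processing tried, from 1.24 to 3.42, although the analysis of variance gives no p where the spread is 0. It was the only member past 2-fold, where 21.5% of the tested miRNAs were at least 2-fold higher. miR-16 was higher by 0.44 (standard error 0.040, limma adjusted p = 0.0444), positive in every processing but past the threshold only in some. miR-15a differed by 0.28 (standard error 0.15, limma adjusted p = 0.293) but did not pass, and with scaling to the 75th percentile of all mouse miRNAs its difference was -0.05.

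miR-497 was at -0.70 against Sham (standard error 0.052, limma adjusted p = 0.0382), and the sign turned to 0.64 without normalization between arrays. miR-195 was lower by -0.21 (limma adjusted p = 0.0195), which turned to 0.93 without normalization. That difference of miR-195 is near the scanner error and rests on the tie described above. The median difference over the 5 members was 0.28, beside -0.15 over the 298 miRNAs tested and -0.30 over the 76 detected on all arrays. Of all 161 calls 47.2% were higher in Flut+Acy. With scaling to the 75th percentile of miRNAs detected on all arrays the share was 78.7%, with the authors' values 57.5% and without normalization 100%, while over miRNAs detected on all arrays it was 35.7% and with no filter 25.4%, and the direction of a small difference depends on the scaling.

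**Figure D3:**
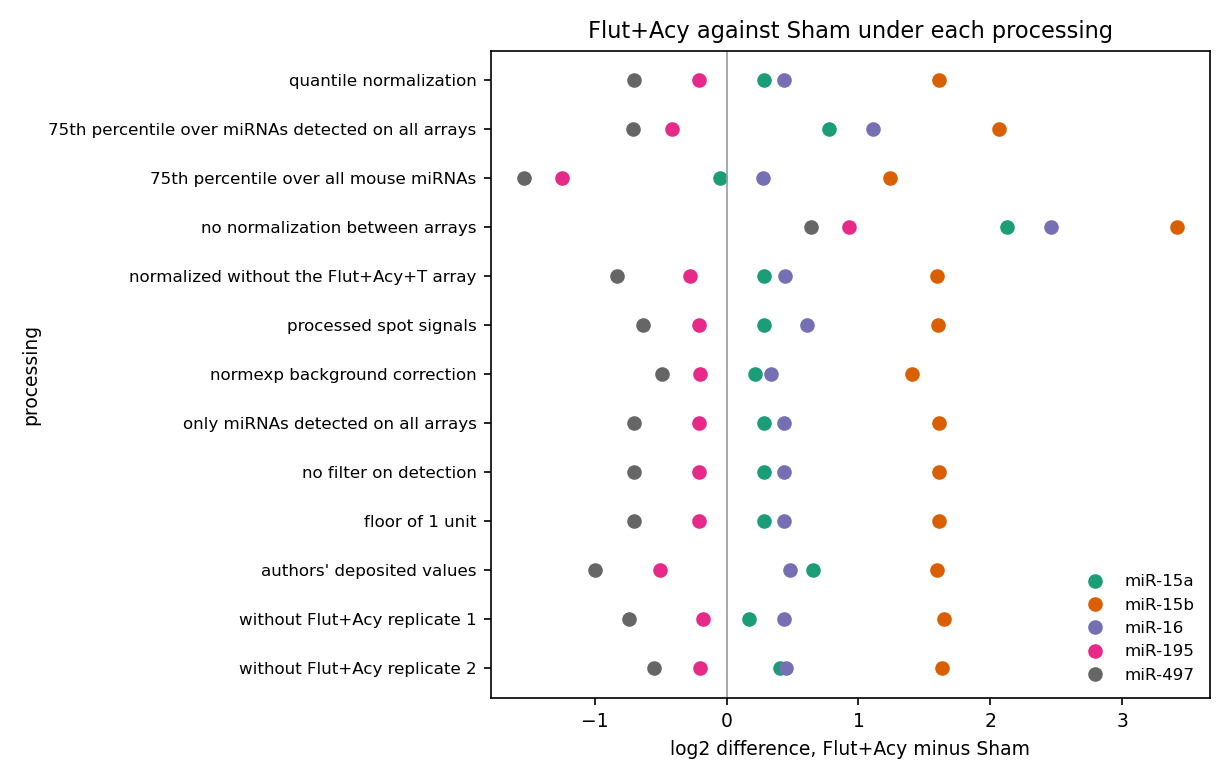
Log2 difference between Flut+Acy and Sham for each member (points) under each processing (one line each). The processing moves the members by unequal amounts. From quantile normalization to the 75th percentile of miRNAs detected on all arrays, miR-15a goes up to 0.78 and miR-195 down to -0.42. miR-15b stays between 1.24 and 3.42 throughout. miR-15a turns to -0.05 under 1 scaling, and miR-195 and miR-497 turn to 0.93 and 0.64 without normalization.

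The comparison of Flut+Acy+T with Flut+Acy asks which of these levels respond when testosterone is given back. limma called 3 of the 5 members, against 75.2% of the miRNAs tested. miR-15b and miR-16 fell, against 53.7% of all tested, and miR-195 rose, against 21.5%. miR-16 was at -0.90 on the log2 scale (standard error 0.040, limma adjusted p = 0.0147), and miR-15b at -1.59 (standard error 0.0069, limma adjusted p = 0.0024). miR-15b was the only member at least 2-fold lower, as were 50.7% of all tested miRNAs. All tested include miRNAs not detected on Flut+Acy+T, where 102 were detected. Among the 76 miRNAs detected on all arrays, total signals were ranked from the largest ratio of Flut+Acy+T to Flut+Acy. There miR-15b ranked 69, miR-16 67, miR-15a 59, miR-195 37 and miR-497 35. miR-15a, at -0.45 (limma adjusted p = 0.158), did not pass. These 3 differences were negative under every processing tried, from -0.26 to -2.88. miR-195 was higher by 0.28 (limma adjusted p = 0.0088), but its sign turned to -1.05 with scaling to the 75th percentile of all mouse miRNAs and to -0.96 in the values deposited by the authors. miR-497 had a difference of 0.09 (limma adjusted p = 0.284), which turned to -1.05 with the same scaling and to -0.03 with processed spot signals. The member median was -0.45, beside -1.08 over all miRNAs tested and 0.13 over those detected on all arrays. Of all calls 28.6% were higher, 40.4% without normalization, 52.4% over miRNAs detected on all arrays and 55.1% with no filter on detection, so the majority turns with the filter.

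The comparison of Flut+Acy+T with Sham asks whether levels returned to those of control mice. Both groups have 1 array each, so the spread behind these p-values is that of the Flut+Acy pair alone. limma called 3 of the 5 members, against 65.8% of the miRNAs tested. miR-195 was 0.07 higher (limma adjusted p = 0.0457), where 17.4% of all tested were higher. miR-16 (log2 difference -0.47) and miR-497 (-0.61) were lower, both with a limma adjusted p of 0.0410, where 48.3% of all tested were lower. None was 2-fold apart, where 16.4% of all tested were 2-fold or more above Sham and 42.3% as far below it. miR-15a had a difference of -0.17 (limma adjusted p = 0.548) and miR-15b one of 0.02 (limma adjusted p = 0.267). All 5 of these differences changed sign under at least 1 other scaling. Without normalization each was positive, and with scaling to the 75th percentile of all mouse miRNAs each was negative, so their direction is not settled here. The member median was -0.17, beside -0.47 over all miRNAs tested and -0.03 over those detected on all arrays. All tested again include miRNAs not detected on Flut+Acy+T. Of all calls 26.5% were higher, 52.8% with scaling to the 75th percentile of miRNAs detected on all arrays and 76.3% without normalization. It was 43.5% over miRNAs detected on all arrays and 56.7% with no filter.

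A ratio between members on the same array needs no scaling factor between arrays, so it can show unequal change where the direction of each member is unsettled. It still depends on the processing where a normalization acts unequally on bright and dim miRNAs. Only the change of a ratio between arrays is read here, since probes of different miRNAs differ in brightness for equal amounts. All 10 pairs of members were computed, with scanner errors taken as independent and with no test. The ratio of miR-195 to miR-16, the pair that differs at 2 positions, was 6.0 on Sham, 1.99 and 2.18 on the Flut+Acy pair, and 4.56 with Flut+Acy+T. It was lower by a log2 difference of -1.53 ± 0.21 in Flut+Acy than in Sham, and the step from there to Flut+Acy+T was 1.13 ± 0.33. The ratio of miR-497 to miR-16 was 6.25 on Sham, 1.80 and 1.75 on the Flut+Acy pair, and 3.91 with Flut+Acy+T, with log2 differences of -1.82 ± 0.21 and 1.14 ± 0.33. Both ratios were thus lowest on the Flut+Acy arrays, with each of those arrays below the other 2. With quantile-normalized signals the log2 differences for Flut+Acy against Sham were smaller, at -0.65 for miR-195 and -1.14 for miR-497. For Flut+Acy+T against Sham, that of miR-195 to miR-16 then turned from -0.39 to 0.54.

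The ratio of miR-15b to miR-16, its chromosome 3 neighbour, was 0.931 on Sham, 1.81 on both Flut+Acy arrays and 1.25 with Flut+Acy+T. The log2 difference from Sham to Flut+Acy was 0.96 ± 0.21, and the next step, to Flut+Acy+T, was -0.54 ± 0.38, which turned to 0.72 in the authors' values. miR-15b thus gained on miR-16 in Flut+Acy by more than the scanner error. The ratio of miR-15a to miR-16 was 1.41 on Sham, 1.18 and 1.07 on the Flut+Acy pair, and 1.39 with Flut+Acy+T. These values lay within about 2 errors of each other, at -0.33 ± 0.20 for Flut+Acy against Sham (0.17 in the authors' values). The ratio of miR-195 to miR-497 was 0.959 on Sham, 1.11 and 1.24 on the Flut+Acy pair, and 1.17 with Flut+Acy+T, with a log2 difference of 0.29 ± 0.20 for Flut+Acy against Sham. For the pairs on chromosomes 14 and 11 the change of ratio from Sham to Flut+Acy was thus under 2 scanner errors, and for the pair on chromosome 3 it was over 4 (miR-16 is read from both of its copies). The widest change between members was that of miR-15b to miR-497, at 2.78 ± 0.20 for Flut+Acy against Sham.

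**Figure D4:**
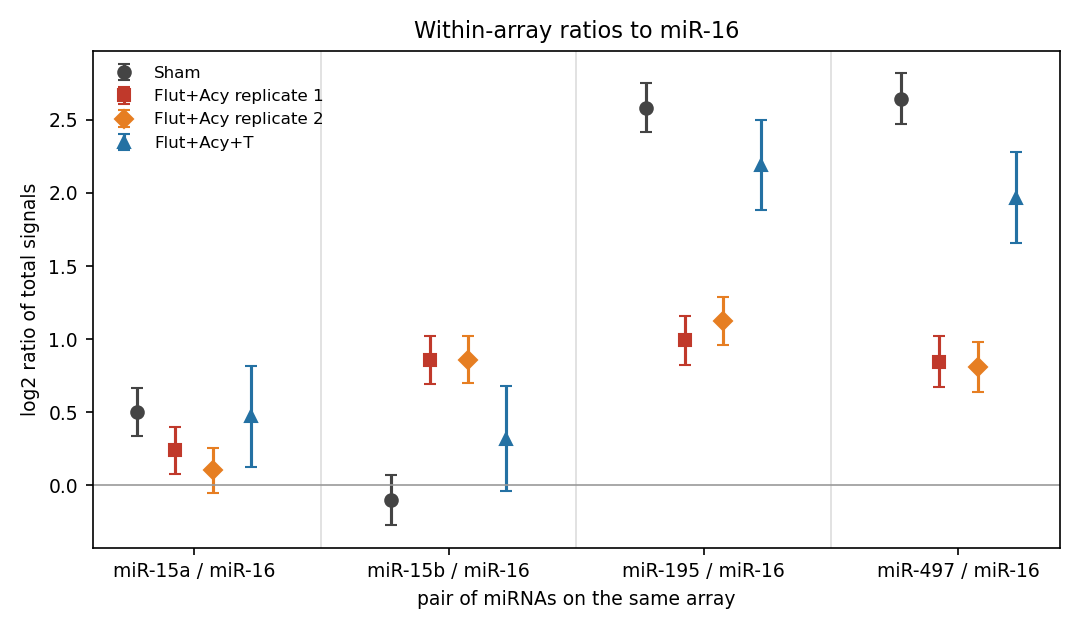
Log2 ratio of the total signal of each other member to that of miR-16 on the same array; points are single arrays and bars the scanner errors of both miRNAs combined. For miR-195 and miR-497 the Flut+Acy arrays lie lowest (ratios of 1.75 to 2.18 against 6.0 and 6.25 on Sham), for miR-15b they lie highest in these total signals, and for miR-15a the bars of all arrays nearly meet.

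The pair of probes of each member gave the same sign for Flut+Acy against Sham. There, the log2 differences of the median spot signals, not normalized, were 3.51 and 3.38 for miR-15b, 2.66 and 2.55 for miR-16, and 2.26 and 2.09 for miR-15a. They were 0.73 and 1.06 for miR-195 and 0.64 and 0.71 for miR-497, so each probe of the chromosome 11 members changed less than any probe of the other members. On Flut+Acy+T the dimmer probes of miR-15b and miR-16 had 0 of 10 spots well above background, so no difference is given for them, and the total signals of both miRNAs on that array include them. The brighter probe had a difference of -1.0 for miR-15b and -0.49 for miR-16 in Flut+Acy+T against Flut+Acy. In that comparison the probes of miR-15a were at -0.28 and -0.20, those of miR-195 at 0.58 and 0.56, and those of miR-497 at 0.36 and 0.55. One spot of a miR-195 probe on Flut+Acy+T read 92.7 units where the highest read 4013.

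**Figure D5:**
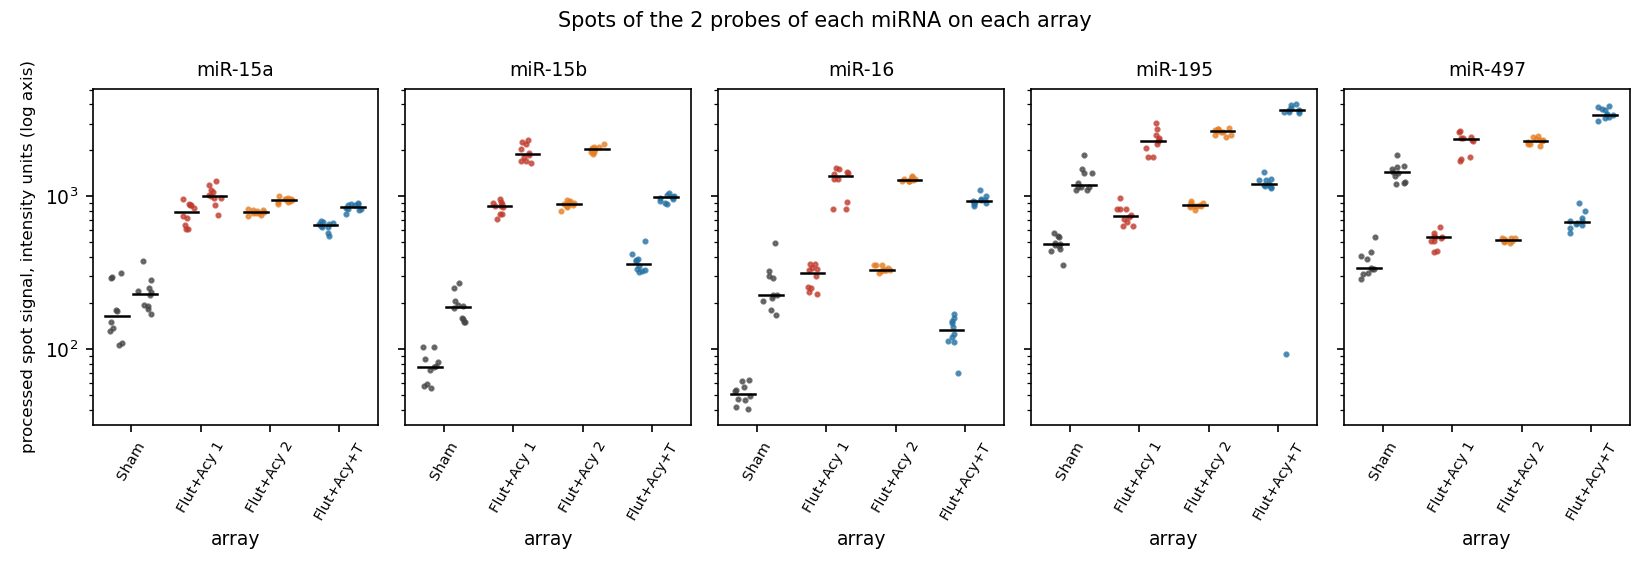
Processed signals of single spots, in intensity units on a log axis, for the 2 probes (left and right cloud) of each member on each array; black lines are medians. The brighter probe of each member is the same one on every array, on Flut+Acy+T the left probes of miR-15b and miR-16 have no spot well above background, and 1 miR-195 spot reads 92.7 units.

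The opposite arms of the same hairpins, usually the less stable product, gave no further measure. miR-15a*, miR-15b* and miR-16* were detected on none of the arrays, and miR-195* and miR-497* are not analysed here. Among the relatives that share most of this seed (miR-322, miR-503, miR-103 and miR-107), miR-322 carries the same seed but lies on the X chromosome, near miR-503. The normalized log2 signal of miR-322 was 9.55 on Sham, 9.84 and 9.79 on the Flut+Acy pair, and 9.49 with Flut+Acy+T. Its differences were 0.26 for Flut+Acy against Sham (limma adjusted p = 0.0690) and -0.32 for Flut+Acy+T against Flut+Acy (limma adjusted p = 0.0418). miR-503, detected on neither Sham nor Flut+Acy+T, exceeded Sham in Flut+Acy by at least 2.12-fold, a bound that was not tested. The limma difference, which used its undetected signal on Sham, was 2.00 (limma adjusted p = 0.0195). miR-103 and miR-107, made within introns of pantothenate kinase genes and reading the seed shifted by a base, had differences of -0.01 and 0.09 for Flut+Acy against Sham and passed no threshold there. Both fell in Flut+Acy+T against Flut+Acy, by -0.53 (limma adjusted p = 0.0082) and -0.57 (limma adjusted p = 0.0195). Of these 4 relatives, 1 was called higher for Flut+Acy against Sham, beside 25.5% of all tested, and none lower, beside 28.5%. For Flut+Acy+T against Flut+Acy, the 3 detected on Flut+Acy+T were called lower, beside 53.7% of all tested. For miR-503 no fall can be shown there, since its level in Flut+Acy lay below what the array with testosterone could detect.

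The patterns most like each member were found by the distance between centred normalized log2 values over the 4 arrays, among the 75 other miRNAs detected on all of them. miR-15b lay nearest to miR-19b (distance 0.13), then miR-34c (0.35) and miR-20a (0.38). miR-16 lay nearest to miR-709 (0.29), miR-107 (0.35) and let-7g (0.38), and miR-15a to miR-29b (0.14), miR-322 (0.15) and miR-709 (0.17). miR-195 lay nearest to let-7a (0.13), miR-199b (0.13) and miR-125b-5p (0.17), and miR-497 to miR-99a (0.14), miR-125a-5p (0.15) and miR-21 (0.19). No member was among the 3 nearest of another member. Within the family, miR-15a and miR-16 were 0.39 apart, miR-195 and miR-497 0.50, and miR-15b and miR-497 2.05.

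Marker miRNAs of testis cell types also differed between the groups, and after normalization not all in the same direction. The summed total signal of 5 miRNAs of meiotic and later germ cells (miR-34b-3p, miR-34b-5p, miR-34c, miR-449a and miR-449b) was 475 units for Sham, 7121 and 7385 for the Flut+Acy pair, and 3472 with Flut+Acy+T, with miR-449b detected on none of the arrays. After normalization the sum was 1670 for Sham, 7067 and 5919 for the pair, and 2486 with Flut+Acy+T. Most of it came from miR-34b-5p and miR-34c, of which miR-34c was among the 3 patterns nearest to miR-15b. Their order of the groups was that of the unnormalized miR-15a, miR-15b and miR-16. miR-34b-3p had another order, with 0.48 units on Sham, 40.3 and 51.8 for the pair and 548 with Flut+Acy+T, and miR-449a was not detected on Flut+Acy+T. Of muscle and peritubular cells, 5 miRNAs (such as miR-143 and miR-145) summed to 1785 units on Sham, 2580 and 3091 for the Flut+Acy pair, and 4488 with Flut+Acy+T. Most of this sum came from miR-143, at 1227 units on Sham and 3399 with Flut+Acy+T, where miR-133a and miR-145 were not detected. After normalization that sum was 5142 on Sham, 2717 and 2860 on the Flut+Acy pair, and 3180 with Flut+Acy+T, lower in Flut+Acy than in Sham as for miR-195 and miR-497. Of blood cells, 7 miRNAs summed to 241 units on Sham, 390 and 445 for the Flut+Acy pair, and 1067 with Flut+Acy+T, with miR-144 detected nowhere and none of the 7 detected on Flut+Acy+T. Their normalized sum ran the other way, at 1075 for Sham, 509 and 514 for the pair and 475 with Flut+Acy+T. The endothelial miR-126 arms summed to 649 units on Sham, 1986 and 2155 for the Flut+Acy pair, and 4013 with Flut+Acy+T, where miR-126-5p was not detected. Normalized, they summed to 1647 for Sham, 2062 and 1938 for the pair and 3285 with Flut+Acy+T. Most of this came from miR-126-3p, with a log2 difference of 0.32 for Flut+Acy against Sham, whereas that of miR-126-5p was -0.65. miR-202-3p, a marker of gonadal somatic cells, read 103 units on Sham and 312 and 339 for the pair, and miR-202-5p 0.51, 21.5 and 27.0 on the same arrays, not detected on Sham. Neither arm was detected on Flut+Acy+T, where the lowest detected total signal was 238 units. The unnormalized Sham values lay below that, but the Flut+Acy+T array was brighter as a whole. After normalization both arms summed to 409 on Sham, while the lowest detected signal on Flut+Acy+T was 104. Whether a level like that of Sham would have been detected there was not tested. The part of these cell types in the differences of the family was not tested.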

How the data were processed

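The authors deposited, for each array, the linear intensity output of Feature Extraction 9.5.3.1 (total signals, spot signals, errors and flags, not normalized between arrays) and a table of intensities that they had quantile-normalized in MATLAB. How spots were combined in that table is not given in the sources used here. Positions in the files are on mm9, whereas printed ones are those of RefSeq on GRCm38.p6. Quantile normalization was run on the total signals of the 567 mouse miRNAs over all 4 arrays. They were then floored at 5.46 units, put on the log2 scale and fitted with limma 3.58.1 (R 4.3.3, 3 groups, Benjamini-Hochberg over 298 miRNAs with at least 1 array that detected them, threshold 0.05). The fit had 1 residual degree of freedom and a prior of 0.46 degrees of freedom with an SD of 0.01. It was tested on simulated data that held no tied values and had a larger spread than this prior. That test therefore does not cover the p-values given here, those of miR-15b and miR-195 included. A bound for an undetected miRNA uses the lowest detected signal of that array, after normalization. The number of arrays limits the precision. All arrays shared 1 slide and 1 scan time. The members, relatives, marker lists and alternatives were chosen with earlier results of these data known. Named beside the members were their opposite arms, the relatives miR-322, miR-503, miR-103 and miR-107, miRNAs with the same seed, the 3 nearest patterns of each member and marker lists. Other scalings, background corrections, detection filters and floors, the authors' table, leaving out a Flut+Acy array and the methods' analysis of variance were tried as alternatives. Real-time RT-PCR, target and tissue experiments are not analysed here.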

Additional observations from a re-analysis of the deposited data

How the results depend on the processing

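In what follows, suppression is the log2 difference Flut+Acy minus Sham, replacement is Flut+Acy+T minus Flut+Acy, and return is Flut+Acy+T minus Sham. miR-15b was higher under suppression (1.24 to 3.42) and lower under replacement (-2.72 to -1.10) with every alternative, as was miR-16 (0.28 to 2.46 and -2.88 to -0.56). The return differences changed sign for all 5 members. Where a value below changed its call or its sign, the cause was not tested.

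With scaling to the 75th percentile of all mouse miRNAs, suppression was -0.051 for miR-15a and 0.28 for miR-16, which was no longer called. Replacement called 5 members, with -1.89 for miR-15a, now called, -1.05 for miR-195 and -1.05 for miR-497. Return also called 5, with -1.94 for miR-15a, -1.49 for miR-15b and -2.30 for miR-195. With the percentile taken over miRNAs detected on all arrays, suppression of miR-195 was -0.42 and lost its call, and replacement was -0.78 for miR-15a, now called, and 0.050 for miR-195, no longer called. Return was then 0.45 for miR-15b, now called, 0.026 for miR-16 and -0.37 for miR-195.

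Without normalization between arrays, suppression was 2.13 for miR-15a, now called, 0.93 for miR-195 and 0.64 for miR-497. Replacement called only 1 member, miR-15b, with -0.56 for miR-16 and 0.57 for miR-195 past no threshold. Return called 5, with 1.87 for miR-15a, 2.32 for miR-15b, 1.90 for miR-16 and 1.22 for miR-497.

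With processed spot signals, suppression called 2 members and lost miR-16 (0.61) and miR-497 (-0.64), replacement of miR-497 was -0.029, and return called 1, miR-15b (0.15), and lost miR-16 (-0.26), miR-195 (0) and miR-497 (-0.66). With normexp background correction, miR-497 lost its calls under suppression (-0.49) and return (-0.39), replacement of miR-195 was 0, and return was -0.067 for miR-15b and -0.21 for miR-195. With no filter on detection, suppression called 2 members, and calls were lost for miR-16 (0.44 under suppression, -0.90 under replacement, -0.47 under return) and miR-497 (-0.70 under suppression, -0.61 under return), while return of miR-15b (0.017) was called. With only miRNAs detected on all arrays, return called 0 members by limma (3 at an unadjusted p under 0.05), with miR-16 at -0.47, miR-195 at 0.072 and miR-497 at -0.61. A floor of 1 unit took the return call from miR-195 (0.072).

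In the authors' deposited values, suppression called 2 members and lost miR-16 (0.48) and miR-195 (-0.50). Replacement was -1.45 for miR-15a, now called, and -0.96 for miR-195, and return was -0.57 for miR-15b and -1.46 for miR-195. Their ratios to miR-16 for suppression, replacement and return were 0.17, 1.43 and 1.61 for miR-15a, and 0.72 and 1.83 for the last 2 of these for miR-15b. They were -0.98, 1.93 and 0.94 for miR-195, and -1.48, 2.91 and 1.43 for miR-497. With quantile-normalized signals, the suppression ratios were 1.17 for miR-15b, -0.65 for miR-195 and -1.14 for miR-497, and the return ratios were 0.54 for miR-195 and -0.14 for miR-497.

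The methods' single-factor analysis of variance, with each miRNA's own residual variance and Benjamini-Hochberg adjustment, called 0 members and 0 miRNAs in each comparison, where 89, 147 and 112 of 298 had an unadjusted p under 0.05. It gave no p for the 55 miRNAs without spread, miR-15b and miR-195 among them. miR-16 (0.44, -0.90 and -0.47) and miR-497 (-0.70 under suppression and -0.61 under return) lost their calls. Tukey's comparison was not run.

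Leaving out either Flut+Acy array leaves no residual degrees of freedom, so these are values with no test. Suppression was 0.17 to 0.41 for miR-15a, 1.64 to 1.65 for miR-15b, -0.20 to -0.18 for miR-195 and -0.74 to -0.55 for miR-497. Replacement was -1.63 to -1.62 for miR-15b, -0.94 to -0.86 for miR-16, 0.23 to 0.27 for miR-195 and 0.042 to 0.14 for miR-497. Return was 0.0064 to 0.023 for miR-15b, -0.49 to -0.42 for miR-16, 0.044 to 0.064 for miR-195 and -0.60 to -0.51 for miR-497. Over the alternatives with limma, between 42 and 218, 42 and 260, and 23 and 236 miRNAs were called in the 3 comparisons. No paired analysis was possible because the groups compared share fewer than 2 replicate numbers. The background spread of the Flut+Acy+T array limits every value on it, and its lowest detected total signal was 238 units.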
